A study of Mus musculus with 24 samples.

Results

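This report describes 41 long noncoding RNAs (lncRNAs) of the mouse testis whose probes gave a signal in F9 embryonal carcinoma cells and not in the germ cell lines GC-1 and GC-2. The study listed 229 testis-specific lncRNAs as expressed in at least 1 of these lines, and each was read on all 24 arrays. A transcript was taken as detected in a group where the scanner software called its spot well above background on all 3 arrays of that group. By this measure 127 of the 229 were detected in F9, 82 of them also in GC-1 or GC-2 and 45 in F9 alone. Leaving out 4 of the 45 that the study lists as conserved in human gave the 41 members, which carry 33 symbols and make up a small part of the 60804 transcripts on the array. Detection in testis, in the other tissues and in the 3 lines chose the members, so their levels outside F9 and testis, and the gap between F9 and the GC lines, are given as a description with no test. The comparison left to test is F9 against testis, since the choice asked for a signal in both and not for which was higher. The choice still bears on it, as members had to be detected in F9 and to stand above 4 other tissues in testis.

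Brain, heart, kidney, liver and testis came from male ICR mice of 8 weeks, and the lines were F9, GC-1 and GC-2, with 3 arrays in each of the 8 groups. F9 is a line of testicular carcinoma stem cells that resemble early embryonic cells and can be driven to differentiate with retinoic acid, which was left out of the medium. GC-1 and GC-2 are immortalized lines with features of spermatogonia and spermatocytes. Whole testis holds many germ and somatic cell types, so fewer cells of a type and less RNA per cell cannot be told apart in it. No treatment was compared between the groups. The lines were not taken from the ICR mice, and GC-1 and GC-2 are immortalized, so genotype and cell type cannot be told apart. Each line is a single established culture, so its arrays measure the spread between samples of that culture.

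Adult testis transcribes more of its genome than most tissues, and many lncRNAs are read there from germ cells during meiosis and after it. Embryonal carcinoma cells share with early germ cells a set of pluripotency and RNA-binding genes, among them Trim71, an RNA-binding ubiquitin ligase repressed by the let-7 microRNAs as cells differentiate. A lncRNA can lie between genes, run antisense to a gene or be a noncoding transcript of a coding locus, and its symbol often says no more than where it was found.

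Between 23525 and 27537 probes were well above background on an F9 array and between 34999 and 37393 on a testis array. Replicate 1 of every group was run on slide 1, replicates 2 and 3 of testis on slide 2 and those of the lines on slide 3. Liver array 1 had a higher background than the rest, with a 95th percentile of its negative controls of 13.6 against 2.97 to 4.97. The identity of the samples was read from marker genes. The array files name probes without genes, so a gene could be read only where the study's lists of tissue or cell line transcripts name its probe, and these lists were themselves made from detection in testis and the lines. Of 18 markers of pluripotent or embryonal carcinoma cells, 5 were identified, and all 5 (Zfp42, Trim71, Zscan10, Fbxo15 and Phc1) were well above background on all 3 F9 arrays and in no GC line on all 3. Some probes of Phc1 were well above background on 2 of 3 GC-2 arrays. Levels here are log2 processed signals minus the 75th percentile of the array. Zfp42, also called Rex1, was at 4.65 in F9, at -1.61 in testis and at or below -4.46 in GC-1 and GC-2. Pou5f1, Sox2 and Nanog were not analysed here. Of 16 germ line genes, 10 were identified, and Tex14, a component of the bridges between germ cells, was the only one of these detected on all 3 arrays of a GC line (1 of its 2 probes, in GC-1). Star, a gene of steroid-making Leydig cells, was at 2.58 in testis, was detected on all 3 arrays of GC-1 and of GC-2, and was well above background on 1 of 3 F9 arrays. In F9 against testis, these germ line genes went both ways. On the log2 scale the piRNA pathway gene Gtsf1 differed by -8.17, Piwil2 by -3.33, Rnf17 by -2.68, Tex15 by -1.83 and Gpat2 by -0.75. Tex19.1 differed by 2.95, and Stra8, a gene induced by retinoic acid at the entry into meiosis, by 1.15. Morc1 differed by 0.81, Hormad2 by 0.32 and the probes of Tex14 by 0.04 and 0.68. The direction of the small positive differences depends on the scaling, as set out below. No marker of Sertoli cells, spermatids or fibroblasts was identified.

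Positions could be given for 11 members, 9 from the study's annotation and the others by RefSeq accession, all on GRCm38. The build of the annotation was checked on the 2 transcripts that RefSeq also places, and start and end were equal for both. Another 5 members share only a symbol with a RefSeq gene, which does not place the transcript itself, and 25 had no position. Promoter windows from RefSeq (GRCm38.p6), 250 bases before to 50 bases after the start, are shown for the 2 members that RefSeq places by accession outside any protein-coding gene. Both lncRNAs were much lower in F9 than in testis. Capitals mark an E-box, the only one of 4 motifs searched that occurred in these 2 windows.
4933438K21Rik, chr4:147068387-147068686, minus strand: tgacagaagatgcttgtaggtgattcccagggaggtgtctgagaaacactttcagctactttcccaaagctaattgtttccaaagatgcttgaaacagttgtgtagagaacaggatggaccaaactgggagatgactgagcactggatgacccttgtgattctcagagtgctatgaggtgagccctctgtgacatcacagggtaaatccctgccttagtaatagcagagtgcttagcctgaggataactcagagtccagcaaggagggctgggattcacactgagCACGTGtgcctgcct
1700069L16Rik, chr5:113724723-113725022, minus strand: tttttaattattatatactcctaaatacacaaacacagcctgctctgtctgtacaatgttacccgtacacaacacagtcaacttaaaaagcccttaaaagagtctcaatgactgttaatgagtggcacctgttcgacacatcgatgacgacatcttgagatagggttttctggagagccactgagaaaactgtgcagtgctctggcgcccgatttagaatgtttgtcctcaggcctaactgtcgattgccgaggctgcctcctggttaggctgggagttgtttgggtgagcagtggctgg

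The motifs searched, on both strands, were the octamer ATTTGCAT bound by POU factors, the E-box CACGTG, the CRE core TGACGTCA and the GC box GGGCGG. Among 32817 promoter windows of the same length, 1.74% held the octamer, 7.15% the E-box, 1.79% the CRE core and 35.6% the GC box. Windows existed for 6 symbols of members, 3 matched by accession and 5 windows matched by symbol, 8 in all. An E-box occurred in 2 of the 8 and a GC box in 3, and neither the octamer nor the CRE core was found in these windows. The E-box of 4933438K21Rik began 36 bases into the transcript. The second one lay in a window of Boll, 9 bases before a start of the coding gene, which need not be the start of the noncoding Boll transcript.

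**Figure D1:**
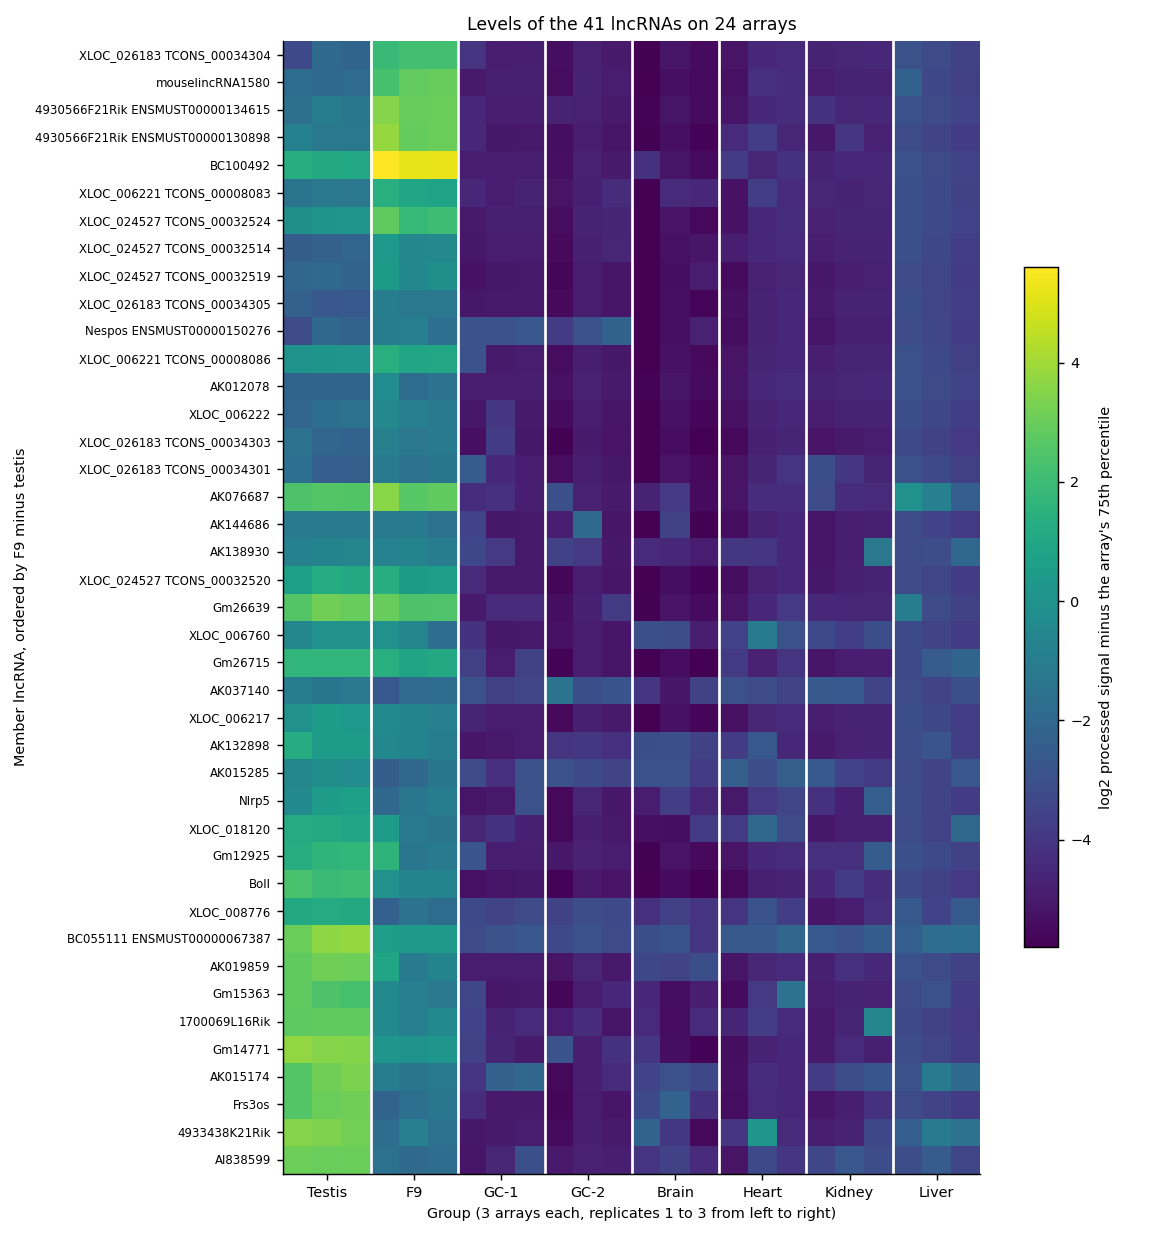
Heat map of the 41 lncRNAs (rows, ordered by the difference F9 minus testis) on the 24 arrays (columns, 3 per group), coloured by the log2 processed signal minus the 75th percentile of the array. The testis and F9 columns stand above those of GC-1 and GC-2 in every row by group mean, the top rows brighter in F9 and the bottom rows brighter in testis, while GC-1 and GC-2 have medians of -4.61 and -5.01.

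In F9 the 41 lncRNAs had a median level of -0.61 and ranged from -2.07 to 5.40, and in testis they had a median of 0.23 and ranged from -2.56 to 3.59. Their medians in GC-1 and GC-2 were -4.61 and -5.01, levels at which most spots were not well above background. Of the 41, 33 were well above background on none of the 6 GC arrays and 8 on 1 or 2 of them. Across all 18 arrays outside testis and F9, 22 lncRNAs were well above background on none, and the other 19 on 1 to 5. Some of these were strong on a single array. The level of 4933438K21Rik was 0.18 on heart array 2 but -3.99 and -4.45 on the other heart arrays, and that of 1700069L16Rik was -0.62 on kidney array 3 but -5.00 and -4.63 on the other kidney arrays.

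Since a spot not above background has only an upper bound, the gap between F9 and a GC line was expressed as a lower bound, against the higher of the probe's own signal and the dimmest signal called well above background on each array. Over GC-1 such a bound existed for 39 lncRNAs and ran from at least 1.72-fold to at least 309-fold, with a median of at least 4.93-fold. Over GC-2 it existed for 35 and ran from at least 2.21-fold to at least 336-fold, with a median of at least 5.36-fold. In each line 19 of the bounds reached 5-fold, and for the remaining lncRNAs a larger gap was not measurable at this sensitivity.

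The dimmest members lay close to the limit of detection. AK037140 gave intensities of 16.8, 20.7 and 19.4 on the F9 arrays, AK015285 gave 19.11, 18.01 and 25.57, and XLOC_008776 gave 21.3, 26.4 and 19.3, where the dimmest spots called well above background on these arrays were at 13.7, 16.2 and 14.9. In GC-2 the signal of AK037140 reached 53.4 on array 1 and was 12.97 and 15.96 on the others. AK015174 was well above background on 2 of 3 GC-1 arrays, at 21.7 and 24.1, and Nespos on none, at 17.6, 14.5 and 14.9. Just outside the rule stood Tex10 transcript ENSMUST00000155905, at 26.7, 22.1 and 21.1 in GC-1, Zfp951 transcript uc008yks.2, at 43.5, 20.96 and 18.1 in GC-2, and AK083486, at 21.6, 30.8 and 31.1 in GC-2.

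Against testis, the members spread in both directions, from lncRNAs far higher in F9 to lncRNAs far lower, with most in between. In limma with Benjamini-Hochberg adjustment over all 60804 probes, 13 of the 41 were higher in F9 and 17 lower at an adjusted p of 0.05 or less, and 11 were not called. At a fold of at least 5, 6 were higher and 11 lower. Over all probes, 63.8% were called higher and 18.7% lower, with 20.0% at least 5-fold higher and 11.2% at least 5-fold lower. Over the 20932 probes well above background on all 3 arrays of both groups, as all members were, these shares were 69.4%, 14.0%, 31.2% and 5.32%. The median difference F9 minus testis was -0.27 on the log2 scale over the members, 1.63 over all probes and 1.497 over the probes detected in both. Members had been required to stand above 4 other tissues in testis, which the other probes had not, so the shares are set side by side with no test.

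The scaling bears on every one of these counts. The testis arrays had 75th percentiles of 305 to 384 in intensity and the F9 arrays of 65.5 to 105, which put the bulk of probes higher in F9. With the percentile taken over the 13551 probes well above background on all 24 arrays, every difference fell by 1.59 and the median over all probes was 0.04. The members then divided into 6 higher and 23 lower, with 5 at least 5-fold higher and 18 at least 5-fold lower. Shares over all probes were not taken in this scaling, so these counts have none beside them. The median difference in it was -1.86 over the members and -0.09 over the probes detected in both. A difference between 0 and about 1.59 therefore has no settled direction, and 9 members stood above the median of the probes detected in both while 32 stood below it.

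**Figure D2:**
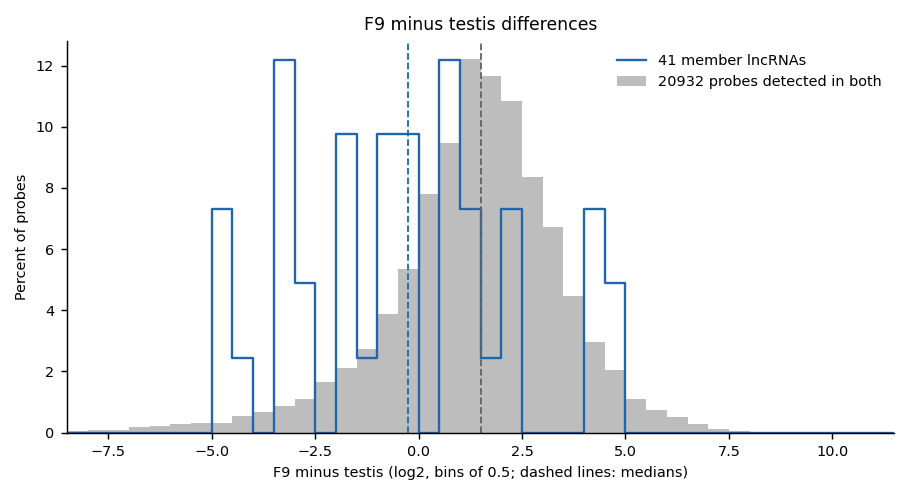
Distribution of the difference F9 minus testis (horizontal axis, log2, bins of 0.5) over the 41 lncRNAs (blue line) and over the 20932 probes detected in both groups (grey bars), as percent of each set (vertical axis), with dashed lines at the medians of -0.27 and 1.497. The members fall on both sides of the grey peak, with one cluster from 4.28 to 4.53 and another from -2.61 to -4.74.

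**Figure D3:**
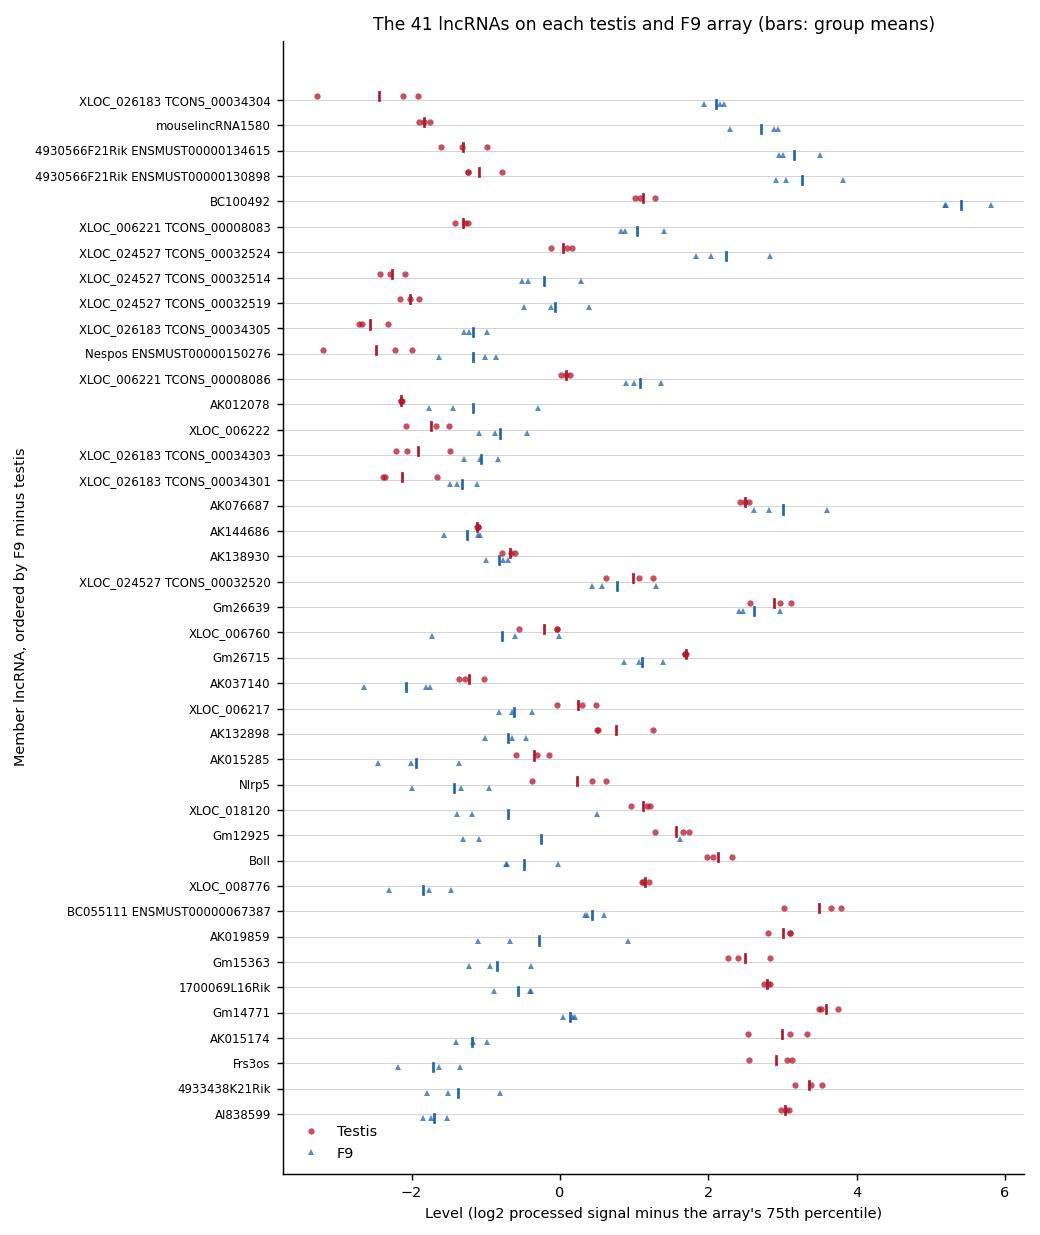
Level (horizontal axis, log2 processed signal minus the 75th percentile of the array) of each of the 41 lncRNAs (vertical axis, ordered by F9 minus testis) on the 3 testis arrays (circles) and the 3 F9 arrays (triangles), with bars at the group means. All F9 arrays lie above all testis arrays for BC100492, mouselincRNA1580 and both 4930566F21Rik transcripts, and below them for the 11 lncRNAs at the bottom.

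BC100492 was named here after its values were seen. Its levels were 5.81, 5.20 and 5.20 on the F9 arrays and 1.29, 1.08 and 1.02 on the testis arrays. All F9 arrays lay above all testis arrays, and the fitted difference was 4.28 ± 0.23 (SE, n = 3 per group; 19.4-fold, limma adjusted p = 9.82e-09). On slide 1, which carried 1 array of each group, the difference was 4.52. It was at least 309-fold higher in F9 than in GC-1 and at least 336-fold higher than in GC-2, and on none of the 18 arrays outside testis and F9 was it well above background. The study's annotation calls it intergenic, at chrX:101794686-101798640 on the plus strand with an RNA of 1050 bases. In RefSeq this interval falls inside 8030474K03Rik, annotated as protein-coding at chrX:101794554-101798658 on the same strand. Which transcript the probe reads was not tested.

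The lincRNA mouselincRNA1580 (BU515331) lies at chr9:114508561-114509656 on the minus strand, 1611 bases past the 3' end of Trim71 (chr9:114511268-114564369) and on the same strand. It was at 2.29, 2.88 and 2.94 in F9 and at -1.75, -1.90 and -1.83 in testis. The groups did not overlap, with a difference of 4.53 ± 0.25 (SE; 23.2-fold, adjusted p = 1.09e-08), and of 4.05 on slide 1. The Trim71 mRNA was at 6.49, 6.45 and 6.54 in F9 and at -0.33, -0.78 and -0.45 in testis. It too was higher on all F9 arrays, by 7.01 ± 0.34 (adjusted p = 4.07e-09), and neither transcript was detected in GC-1 or GC-2. Both differences stayed called in the shared scaling, at 2.94 for the lincRNA and 5.42 for the mRNA.

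The locus 4930566F21Rik had 2 member transcripts, both high in F9. ENSMUST00000134615 was at 3.51, 2.96 and 3.01 in F9 and at -1.61, -0.99 and -1.32 in testis. ENSMUST00000130898 was at 3.82, 2.92 and 3.05 in F9 and at -0.78, -1.24 and -1.24 in testis. F9 and testis were fully apart for both, with differences of 4.46 ± 0.24 (22.05-fold, adjusted p = 8.26e-09) and 4.35 ± 0.28 (20.4-fold, adjusted p = 4.37e-08), and of 5.12 and 4.60 on slide 1. The 2 probes share a locus and are not independent measurements of it. Neither was well above background on any array outside testis and F9.

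**Figure D4:**
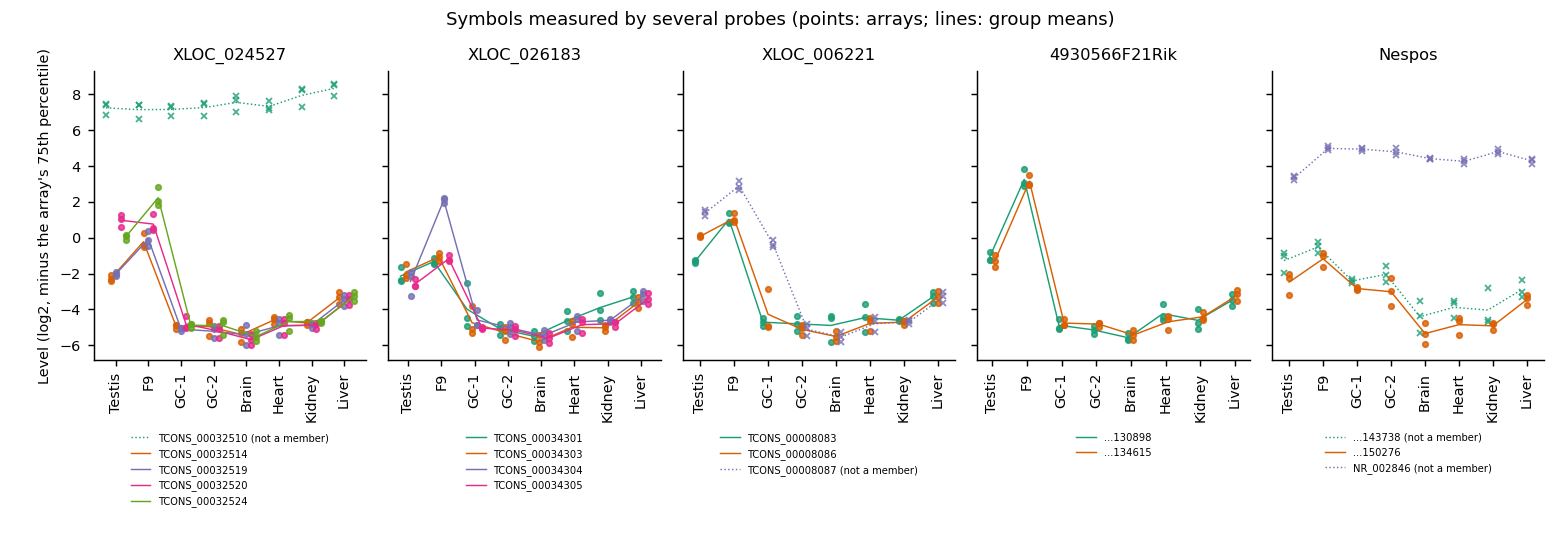
Levels (vertical axis, log2 processed signal minus the 75th percentile of the array) of all identified lncRNA probes of 5 symbols in the 8 groups (horizontal axis), with circles for member probes, crosses for other probes, 1 point per array and lines through group means. TCONS_00032510 of XLOC_024527 is at 6.63 or above on every array, whereas the 4 member probes of that locus are well above background on all 3 arrays of testis and F9 alone, and TCONS_00034304 differs between F9 and testis by more than the other 3 probes of XLOC_026183.

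Several loci were read by more than 1 probe, and their probes did not always move alike. XLOC_026183 had 4 member transcripts. TCONS_00034304 was at 1.94, 2.21 and 2.16 in F9 and at -3.27, -1.91 and -2.11 in testis, a difference of 4.53 ± 0.36 (adjusted p = 2.98e-07) and of 5.21 on slide 1. The other 3 transcripts of the locus ranged from -1.33 to -1.07 in F9 and differed from testis by 0.81 to 1.39, of which only TCONS_00034305 was called (1.39 ± 0.22, adjusted p = 8.03e-05). In the shared scaling these 3 differences were -0.78 to -0.20, so their direction is not settled.

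XLOC_024527 lies 1468 bases upstream of the start of Sall1, a zinc finger transcription factor of organ development, on the same strand (chr8:89045631-89053065, and to 89050709 for TCONS_00032514). Its 4 member transcripts share the coordinate nearest to Sall1. TCONS_00032524 was at 2.83, 1.84 and 2.04 in F9 and at -0.12, 0.10 and 0.16 in testis (difference 2.19 ± 0.30, adjusted p = 2.36e-05). TCONS_00032514 and TCONS_00032519 were higher in F9 by 2.05 ± 0.28 and 1.96 ± 0.26. In contrast, TCONS_00032520 was at 1.301, 0.43 and 0.56 in F9 and at 0.62, 1.26 and 1.07 in testis, overlapping groups with a difference of -0.22 ± 0.31 (adjusted p = 0.523). In the shared scaling the first 3 differences were 0.60, 0.46 and 0.37 and were no longer called (adjusted p = 0.125 to 0.273). On slide 1 the 4 differences were 2.96, 2.70, 2.42 and 0.68, each above the fitted value, and F9 array 1 stood 0.70 to 0.89 above the mean of the other F9 arrays.

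Another probe of this locus, TCONS_00032510, is no member and gave a different picture. It was at 6.63 to 7.41 in F9, at 6.85 to 7.49 in testis, and between 7.17 and 8.34 in the group means of all other groups. The annotation lists 5 further transcripts that this probe may hybridize to, 2 of them the members TCONS_00032519 and TCONS_00032520. Its sequence is printed because it is the single probe of the locus with a signal in every sample, and it holds runs of C (63.3% G and C). Sequences of the 4 member probes were not used here.
TCONS_00032510 probe: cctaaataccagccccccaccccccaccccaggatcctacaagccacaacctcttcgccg

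XLOC_006221 had 2 members. TCONS_00008083 was at 1.40, 0.88 and 0.82 in F9 and at -1.41, -1.24 and -1.28 in testis (difference 2.35 ± 0.26, 5.08-fold, adjusted p = 5.22e-06, and 0.76 in the shared scaling with adjusted p = 0.0344). TCONS_00008086 was at 1.37, 0.89 and 1.00 in F9 and at 0.02, 0.09 and 0.13 in testis, a difference of 1.00 ± 0.46 that was not called (adjusted p = 0.0597). A further transcript of the locus, TCONS_00008087, missed the rule because it was also detected in GC-1, at -0.15, -0.51 and -0.43, where the 2 members were not. It was at 2.68 to 3.18 in F9 and not detected in GC-2.

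Nespos, which RefSeq names Gnasas1, is an antisense RNA of the imprinted Gnas locus on chromosome 2, which encodes the stimulatory G protein alpha subunit. The member ENSMUST00000150276 was at -1.01, -0.86 and -1.64 in F9 and at -3.20, -1.99 and -2.23 in testis. The difference was 1.303 ± 0.40 (adjusted p = 0.00995) but -0.29 in the shared scaling. Another Nespos probe, NR_002846, was detected in all 8 groups, at 3.35 in testis and 4.99 in F9, and lies at chr2:174281237-174295436 on the minus strand, antisense to exons of Gnas. The probe of ENSMUST00000143738 was detected in testis, F9 and GC-2.

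Turning to the members lower in F9, 11 were at least 5-fold below testis. The shared scaling moved every difference by -1.59, so it could only make these 11 lower still and is no check on them. With another background correction (normexp) 9 members were at least 5-fold lower, and Boll and XLOC_008776 fell short. The most negative differences were those of AI838599, 4933438K21Rik and Frs3os. AI838599 was at -1.52, -1.85 and -1.74 in F9 and at 3.09, 2.98 and 3.04 in testis (difference -4.74 ± 0.42, adjusted p = 7.55e-07). 4933438K21Rik was at -1.79, -0.81 and -1.51 in F9 and at 3.54, 3.39 and 3.17 in testis (difference -4.73 ± 0.27, adjusted p = 1.55e-08). No F9 array came near a testis array in either case, and slide 1 gave -4.61 and -5.33. 4933438K21Rik lies at chr4:147063366-147068436 on the minus strand, 2566 bases from Rex2, which is transcribed from the other strand.

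Frs3os was at -2.18, -1.63 and -1.35 in F9 and at 2.55, 3.06 and 3.14 in testis, a difference of -4.63 ± 0.30 (24.8-fold lower, adjusted p = 5.04e-08) and of -4.73 on slide 1. It lies at chr17:47699969-47701996 on the minus strand, inside the span of Frs3, which is transcribed from the plus strand and encodes an adaptor of fibroblast growth factor receptors. In F9 it was at least 2.22-fold over GC-1 and at least 2.41-fold over GC-2, among the smaller bounds. It was also well above background on 2 of 3 brain arrays.

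**Figure D5:**
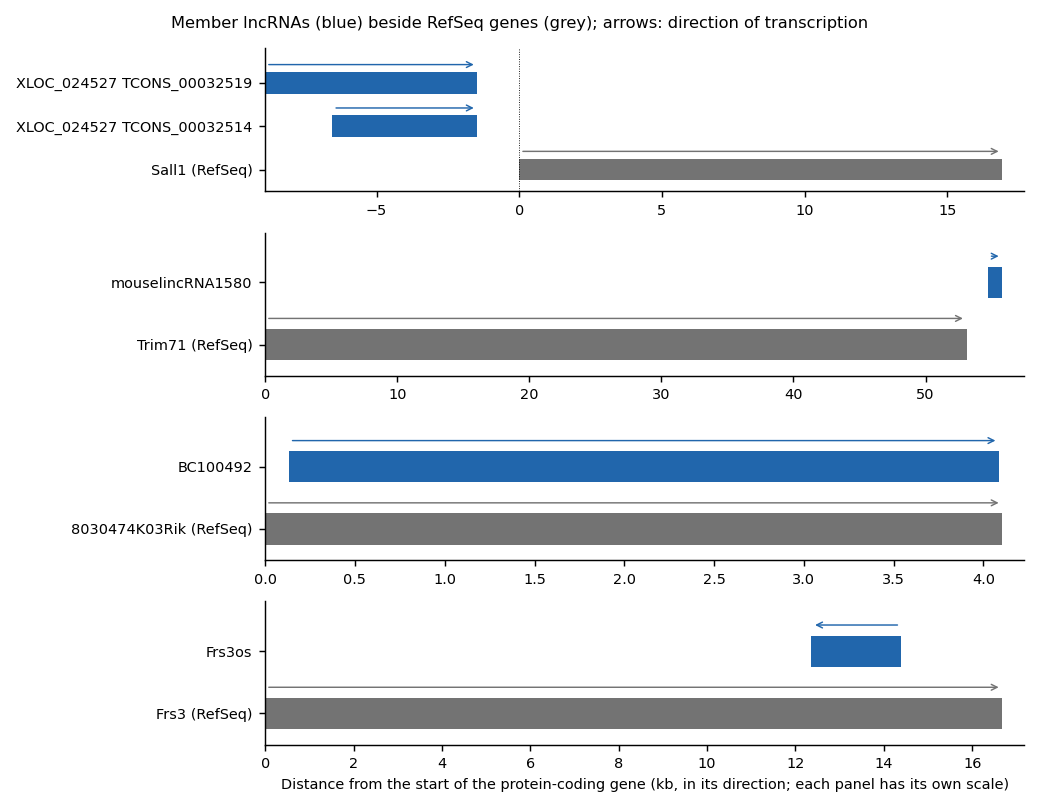
Maps of member lncRNAs (blue) and the nearest RefSeq protein-coding gene (grey), in kb from the start of that gene and in its direction (horizontal axis, its own scale in each panel), with arrows for the direction of transcription. XLOC_024527 lies before the start of Sall1, mouselincRNA1580 past the end of Trim71, BC100492 inside 8030474K03Rik on the same strand, and Frs3os inside Frs3 on the opposite strand.

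Among members that carry the symbol of a coding gene, Boll and BC055111 were also at least 5-fold lower. The Boll transcript ENSMUST00000159564, from the locus of an RNA-binding protein of the DAZ family needed for male meiosis, was at -0.02, -0.71 and -0.72 in F9 and at 2.33, 1.98 and 2.07 in testis (difference -2.61 ± 0.26, adjusted p = 2.11e-06, and -2.35 on slide 1). The noncoding BC055111 transcript was at 0.60, 0.37 and 0.34 in F9 and at 3.02, 3.65 and 3.78 in testis (difference -3.05 ± 0.24, adjusted p = 2.87e-07). The BC055111 mRNA probe did not follow it. It was at 1.73, 1.58 and 1.36 in F9 and at 0.60, 1.84 and 2.24 in testis, overlapping groups with a difference of -0.0044 ± 0.36 (adjusted p = 0.991). This mRNA difference has no settled direction, since it was -1.59 in the shared scaling, 1.13 on slide 1 and 0.88 with slide as a block. Among the fitted arrays slide 2 held testis arrays alone, so with this block the testis level rests on testis array 1. Like its lncRNA, the mRNA was not detected in GC-1 or GC-2.

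The Nlrp5 transcript ENSMUST00000133237, from the locus of a maternal-effect gene of the oocyte, was at -1.998, -1.33 and -0.95 in F9 and at -0.38, 0.44 and 0.62 in testis. The difference of -1.65 ± 0.54 was called (adjusted p = 0.0130), but not without F9 array 1 (-1.36, adjusted p = 0.0567) nor with slide as a block (adjusted p = 0.0508). Gm15363, a RefSeq pseudogene whose member transcript lies at chrX:74958531-74959647, differed by -3.35 on the log2 scale (SE 0.45, adjusted p = 2.14e-05). 1700069L16Rik at chr5:113692424-113724772 was at -0.40, -0.89 and -0.41 in F9 and at 2.75, 2.83 and 2.80 in testis, 10.3-fold lower (adjusted p = 1.70e-06). AK015174, at -1.18 in F9 and 2.99 in testis, was 18.1-fold lower (adjusted p = 8.22e-06), and XLOC_008776 was 7.93-fold lower (adjusted p = 3.06e-07). The remaining 2 of the 11, Gm14771 and AK019859, were named after their values were seen and were 10.9-fold and 9.80-fold lower (adjusted p = 1.91e-05 and 1.49e-05). AK019859 was the one lncRNA of these whose difference on slide 1, -1.89, fell short of 5-fold.

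AK138930 lies at chr5:104803076-104804262 on the minus strand, inside the RefSeq span of Zfp951, a zinc finger gene, and on the same strand. The study's annotation calls it intergenic, and which transcript the probe reads was not tested. AK138930 was at -0.76, -0.70 and -0.99 in F9 and at -0.78, -0.65 and -0.60 in testis. These groups overlapped, with a difference of -0.14 ± 0.43 (adjusted p = 0.762). The Zfp951 mRNA was higher in F9 by 1.68 ± 0.24 (adjusted p = 3.36e-05), and a Zfp951 lncRNA probe, uc008yks.2, by 1.64 ± 0.24 (adjusted p = 4.50e-05), but in the shared scaling these differences were 0.09 and 0.05, and both transcripts were detected in GC-2. The 2 dimmest members, AK037140 and AK015285, differed from testis by -0.85 ± 0.40 (adjusted p = 0.0651) and -1.59 ± 0.35 (adjusted p = 0.00115, and 0.0562 with slide as a block).

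F9 array 1 was run on slide 1 and F9 arrays 2 and 3 on another slide, and the members did not read alike on them. Over the 41, F9 array 1 stood at a median of 0.37 above the mean of the other F9 arrays, where the probes detected in both groups had a median of -0.08. It stood more than 1 above for 5 members. The widest were Gm12925, at 1.62 against -1.31 and -1.08, AK019859, at 0.92 against -1.11 and -0.67, and XLOC_018120, at 0.50 against -1.19 and -1.39, named here after their values were seen. The call of Gm12925 (-1.82 ± 0.71, adjusted p = 0.0307) was lost on leaving out testis array 2 or 3 or F9 array 2 or 3 (adjusted p = 0.0679 to 0.130). Its difference was 0.34 on slide 1, the opposite direction, and -0.51 with slide as a block (adjusted p = 0.585). XLOC_006222, called higher by 0.94 ± 0.32 (adjusted p = 0.0166), was lost without testis array 1 (adjusted p = 0.0635) or F9 array 1 (adjusted p = 0.0610) and with slide as a block (adjusted p = 0.0559), and its difference was -0.65 in the shared scaling. XLOC_006760 became called lower without F9 array 1 (adjusted p = 0.0373), as did TCONS_00034303 higher without testis array 1 (adjusted p = 0.0338). With slide as a block over the 12 arrays, the testis level rests on testis array 1, since testis arrays 2 and 3 were alone on their slide. A call kept, lost or gained with this block is therefore no check across the testis arrays. On slide 1 alone, 16 of the 17 lncRNAs called at 5-fold or more differed by 5-fold or more. The direction of the 17 there was fixed beforehand, since the F9 and testis arrays of none of them overlapped. Of the 30 called members, 29 had the same direction on slide 1. Its arrays are part of the fit, so this is no independent check.

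Of the members not yet described, AK132898 differed from testis by -1.46 ± 0.25 (adjusted p = 1.59e-04), and its F9 and testis arrays did not overlap. XLOC_006217, at -0.86 ± 0.24 (adjusted p = 0.00599), and AK012078, at 0.97 ± 0.32 (adjusted p = 0.0152), were called too, but not with slide as a block (adjusted p = 0.155 and 0.0662). In the shared scaling the difference of AK012078 was -0.62. The call of XLOC_018120 was not kept with the block either (-1.81 ± 0.43, adjusted p = 0.00184, and 0.0539 with the block). These 4 and the next were named after their values were seen. AK076687, Gm26639 and Gm26715 were at 3.01, 2.61 and 1.103 in F9 and at 2.49, 2.88 and 1.69 in testis. Their differences of 0.52, -0.27 and -0.59 were not called (adjusted p = 0.294, 0.490 and 0.128), and in the shared scaling they were -1.07, -1.86 and -2.18, with the last pair called lower. The difference of AK076687 was 1.24 with slide as a block and -1.07 in the shared scaling, so its direction is not settled. AK144686, the remaining member, differed by -0.13 ± 0.71 (adjusted p = 0.864). Of all 41, 35 had F9 and testis arrays that did not overlap, 17 with F9 above and 18 with testis above. The share of all probes without overlap was not taken, and 63.8% of all probes were called higher and 18.7% lower. The count of 35 is therefore not read as a trait of the members.

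Beside the 41, the 82 listed lncRNAs detected in F9 and in a GC line had a median difference F9 minus testis of 0.42 and a range from -7.32 to 10.91, and 35 were higher and 25 lower, with 12 at least 5-fold higher and 11 at least 5-fold lower. The 2 sets were chosen by detection in the GC lines, and whether they differ in F9 against testis was not tested.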

How the data were processed

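The authors labeled RNA of 5 mouse tissues and 3 lines with Cy3 for Arraystar mouse lncRNA arrays, 1 sample per array. The arrays were scanned and quantified with Feature Extraction 11.5.1.1, per the file headers. The authors deposited the intensity of each of 62243 spots with flags, background-subtracted and detrended within the array and not normalized between arrays, and a matrix of the same processed intensities. Groups and replicate numbers came from the labels. The members and gene lists were chosen with earlier results of these data known.

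Levels are log2 processed signals of 60804 transcript probes, less the array's own 75th percentile. The 12 arrays of testis, F9, GC-1 and GC-2 were fitted with limma 3.58.1 (R 4.3.3; lmFit and eBayes, 1 coefficient per group), with Benjamini-Hochberg adjustment over all probes. The fit was tested on simulated data. Python 3.11.15 with numpy 2.4.6, pandas 2.3.3 and matplotlib 3.10.9 was used elsewhere. P-values measure the spread between arrays within a group, pooled over testis, F9, GC-1 and GC-2, and 3 arrays per group limit the precision. Most members were not detected in GC-1 and GC-2, so the pooled spread includes that of signals near background.

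No spot of a member was saturated or marked as an outlier. Array replicates 1 of all groups shared slide 1, replicates 2 and 3 of testis slide 2 and those of the lines slide 3. Deviations of same-numbered testis and F9 arrays had correlations of 0.105 to 0.175 over 19294 probes well above background on all 12 arrays. Testis array 3 correlated more with F9 array 2 (0.128) than with F9 array 3, so the numbers were not shown to pair the samples. The main fit used no pairing, and the replicate number entered as a block in an alternative only. Named members were those of symbols with several member probes, with a listed neighbouring gene or a coding or antisense symbol, the 3 with the largest and the 3 with the smallest difference, and those nearest the detection limit, 26 in all. Any other member named was chosen after its values were seen. Alternatives covered the background correction (normexp with offset 50 on the median spot signal, in place of the mean signal), the scaling, a filter on dim probes, slide and replicate as blocks, the methods' t-test, the matrix values, the detection flag and leaving out each array. Another alternative fitted the 6 arrays of testis and F9 alone. The folds and p-values that the study lists were not used.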

Additional observations from a re-analysis of the deposited data

How the results depend on the processing

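Shares over all probes were taken in the main setting alone, so the counts below have no such share beside them. Under the scaling on the 13551 probes well above background on all arrays, 6 members were called higher and 23 lower, 5 of them at least 5-fold higher and 18 at least 5-fold lower. In this scaling the differences of ENSMUST00000150276 (-0.29), TCONS_00008086 (-0.59), TCONS_00034301 (-0.78), TCONS_00034303 (-0.74) and TCONS_00034305 (-0.20) turned negative among the 26 named members, and those of AK012078 (-0.62), XLOC_006222 (-0.65) and AK076687 (-1.07) among the others. Normexp turned those of AK037140 (0.0647) and AK138930 (0.0869) positive. It gave 16 higher and 19 lower, with 5 at least 5-fold higher and 9 at least 5-fold lower. Large differences shrank under it, as for Frs3os (-3.52), mouselincRNA1580 (3.34) and TCONS_00034304 (3.14). Those of Boll (-2.25), XLOC_008776 (-1.85) and TCONS_00008083 (1.75) then fell short of 5-fold. With slide as a fixed block AK138930 (0.42) and TCONS_00032520 (0.34) turned positive, and with slide as a random block they did too (0.13 and 0.0169). Quantile normalization moved the median over all probes by -1.36 and gave 13 higher and 16 lower. With the replicate block the counts were 13 higher and 17 lower, and it changed no call of a named member. Fitted in limma on the 6 arrays of testis and F9 alone, 16 were higher and 19 lower, with 6 and 11 at 5-fold or more. Among the named members, TCONS_00008086 (adjusted p = 0.00395), TCONS_00034301 (0.0260) and TCONS_00034303 (0.0199) were then called higher and AK037140 (0.0281) lower. Leaving out 1 testis or F9 array gave 12 to 13 higher, 16 to 17 lower, 5 to 7 at least 5-fold higher and 11 to 13 at least 5-fold lower. The number of members was 29 with the less strict flag for a signal above background, 33 where no GC array might carry the flag, 41 by the study's own sheets and by 1 common threshold, and 40 to 41 on leaving out an array.

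Depth has no counterpart on arrays, and detection limited the result instead. The dimmest signal called well above background differed from array to array, and a signal below it in GC-1 or GC-2 was not detectable.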
